A study of Mus musculus with 6 samples.

Results

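The genes described here build and drive the mitotic apparatus of dividing cells: 50 genes of the spindle checkpoint, the kinetochore, the mitotic kinases, the chromosomal passenger complex, the kinesins, spindle assembly, cytokinesis and anaphase, with a few chromosome and proliferation genes beside them. They were chosen by name, through the gene symbol that the platform annotation gives each probe set of the array. The choice was made with earlier results of these data known. All 50 were found, on 117 of the 45101 probe sets, and 49 entered the test among 12250 genes. Foxm1 was the member left out, because it had too few detected arrays. Transcripts were measured on 6 Affymetrix arrays of RNA from mouse dental pulp, the soft tissue inside the tooth, and the series title concerns the incisor, which grows throughout life. The 3 Ring1 deletion arrays came from mice labelled Ring1a-/-;Ring1b cko/cko ;CreERT2 that received 40 mg/kg of 4-hydroxytamoxifen on postnatal days 9 and 13. The 3 control arrays came from mice labelled Ring1a-/-;Ring1b flox/flox ;CreERT2 that were given corn oil on the same days. Pulp was collected on postnatal day 17 in both groups. Ring1a and Ring1b are ubiquitin ligases of Polycomb repressive complex 1, which keeps developmental genes silent, and every mouse in the study lacked Ring1a. Drug and deletion differ together between the groups and cannot be told apart. The promoter of the CreERT2 transgene, and whether pulps were pooled, are not given in the sources used here.

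Mitosis is carried out by a small set of machines. Kinetochores assemble on centromeric chromatin and hold the spindle microtubules, and a checkpoint built on Bub and Mad proteins delays anaphase until every chromosome is attached. Aurora, Polo and Nek kinases drive spindle formation, motor proteins of the kinesin family move and separate chromosomes, and a contractile ring then divides the cell. Many of these transcripts accumulate in G2 phase and mitosis and are low in resting cells, so that they serve as markers of dividing cells. Their promoters often carry a cell cycle homology region (CHR), bound by the MuvB complexes, and CCAAT boxes, bound by the factor NF-Y.

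Promoters of members show these elements in the reference genome. RefSeq sequences (build GRCm38.p6) of 250 bases before to 50 bases after the gene start were at hand for 43 of the 50 members. The promoters of Spc24, Aurkb, Incenp, Kif20a, Tpx2, Dlgap5 and Foxm1 were not analysed here. The CHR was searched as TTTGAA, its variant as TTTAAA and the CCAAT box as CCAAT, each on both strands. E2F-like sites were searched with 4 spellings on both strands, the first being TTGGCGC, the next being TTCCCGC, another being TTCGCGC and the last being TTGCCGC. The 7 promoters below are those of the member with the smallest p among those holding a CHR or a CCAAT box in each of 6 roles (Bub1b checkpoint, Spc25 kinetochore, Nek2 mitotic kinase, Cdca8 chromosomal passenger complex, Kif11 kinesin, Ect2 cytokinesis), with Bub3, the member with the largest p, for contrast. They lie at chr2:118597961-118598260, plus strand (Bub1b), chr2:69206164-69206463, minus strand (Spc25), chr1:191821223-191821522, plus strand (Nek2), chr4:124936868-124937167, minus strand (Cdca8), chr19:37376132-37376431, plus strand (Kif11), chr3:27153829-27154128, minus strand (Ect2) and chr7:131560120-131560419, plus strand (Bub3). Each is written 5′ to 3′ along its gene, and capitals mark the CCAAT box and the CHR in either orientation. In Cdca8 a CHR and a CCAAT box on the opposite strand share 1 base.
Bub1b: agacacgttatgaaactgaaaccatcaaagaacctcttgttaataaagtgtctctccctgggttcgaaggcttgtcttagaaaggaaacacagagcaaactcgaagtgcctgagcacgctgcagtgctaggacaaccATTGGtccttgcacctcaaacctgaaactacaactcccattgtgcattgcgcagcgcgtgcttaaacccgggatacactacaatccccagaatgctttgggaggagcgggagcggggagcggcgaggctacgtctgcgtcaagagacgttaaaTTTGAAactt
Spc25: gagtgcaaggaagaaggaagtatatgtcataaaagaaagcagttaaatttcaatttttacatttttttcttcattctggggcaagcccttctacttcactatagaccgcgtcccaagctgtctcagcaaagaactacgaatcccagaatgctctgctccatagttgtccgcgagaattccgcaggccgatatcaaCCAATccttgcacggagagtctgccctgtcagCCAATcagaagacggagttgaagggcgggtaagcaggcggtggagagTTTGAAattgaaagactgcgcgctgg
Nek2: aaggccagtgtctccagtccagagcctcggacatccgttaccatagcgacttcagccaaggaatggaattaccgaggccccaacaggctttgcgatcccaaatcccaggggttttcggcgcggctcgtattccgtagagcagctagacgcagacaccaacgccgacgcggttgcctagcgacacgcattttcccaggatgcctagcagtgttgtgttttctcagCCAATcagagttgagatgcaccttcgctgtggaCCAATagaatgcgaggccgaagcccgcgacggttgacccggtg
Cdca8: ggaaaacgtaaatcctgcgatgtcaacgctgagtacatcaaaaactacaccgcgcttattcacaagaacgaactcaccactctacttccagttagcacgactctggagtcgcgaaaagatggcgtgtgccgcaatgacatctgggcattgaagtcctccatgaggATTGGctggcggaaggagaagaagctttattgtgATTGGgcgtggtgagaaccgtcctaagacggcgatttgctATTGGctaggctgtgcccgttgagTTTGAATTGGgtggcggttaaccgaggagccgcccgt
Kif11: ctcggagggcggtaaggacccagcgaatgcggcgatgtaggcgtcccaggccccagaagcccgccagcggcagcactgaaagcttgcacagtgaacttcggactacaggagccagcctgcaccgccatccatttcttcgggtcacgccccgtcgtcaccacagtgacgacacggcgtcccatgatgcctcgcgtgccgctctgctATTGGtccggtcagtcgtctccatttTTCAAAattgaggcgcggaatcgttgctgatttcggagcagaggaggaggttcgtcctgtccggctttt
Ect2: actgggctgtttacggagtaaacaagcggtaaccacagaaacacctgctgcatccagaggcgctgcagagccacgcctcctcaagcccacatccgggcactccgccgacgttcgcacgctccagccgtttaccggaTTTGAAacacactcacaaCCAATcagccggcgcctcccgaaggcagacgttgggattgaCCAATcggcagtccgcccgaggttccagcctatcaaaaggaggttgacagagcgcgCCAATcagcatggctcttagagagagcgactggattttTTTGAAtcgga
Bub3: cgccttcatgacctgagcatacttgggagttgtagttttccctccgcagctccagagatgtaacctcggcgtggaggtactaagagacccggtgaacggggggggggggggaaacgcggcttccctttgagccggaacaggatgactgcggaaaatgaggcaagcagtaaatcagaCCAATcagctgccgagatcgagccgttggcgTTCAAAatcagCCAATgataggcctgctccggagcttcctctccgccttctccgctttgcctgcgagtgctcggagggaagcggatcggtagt

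Of the 48 member promoters, 29 held a CHR (60.4%), against 17.9% of all 32851 promoters of the same length in the table. A CCAAT box was present in 35 (72.9%), against 37.4% of all promoters, and 26 held both elements (54.2%), against 6.95%. At least 2 CCAAT boxes occurred in 21 member promoters (43.8%), against 11.7%. E2F-like sites were seen in 10 (20.8%), against 9.57%, and the CHR variant in 9 (18.8%), against 13.2%. Some genes have more than 1 listed start, so that the 48 promoters belong to 43 genes and overlap in Bub3, Ect2 and Prc1. Across all matches in member promoters, the CHR began at a median of 5 bases before the start and the CCAAT box at a median of 60 bases before it. Among the 7 promoters shown, Bub3 carries 2 CCAAT boxes and 1 CHR, the same elements as Spc25, although its transcript level did not follow that of Spc25. A match is a stretch of letters and not a binding site.

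The mitotic transcripts had lower mean signals in the deletion arrays in every role. Of the 49 members tested, 15 fell and none rose in limma (adjusted p under 0.05), and all 49 had a lower mean log2 signal in deletion. For comparison, 0.759% of all 12250 genes fell by the same test, 1.89% rose and 47.5% had a lower mean. The median log2 difference of the members was -1.31, a ratio of 0.404, beside a median of 0.02 over all genes. On 33 members the 3 deletion arrays lay below all 3 control arrays, a separation that 8.64% of all genes showed in that direction. The members that fell were Bub1b, Cdc20, Spc25, Cenpa, Birc5, Incenp, Cdca8, Kif11, Hmmr, Ect2, Prc1, Ube2c, Cks2, Mki67 and Top2a. At an unadjusted p under 0.05, 42 members were lower and 0 were higher, against 5.85% and 9.3% of all genes. The 15 made up 16.1% of the 93 genes that fell in the whole table, while the tested members are 0.4% of the genes tested. Because the members were chosen with earlier results of these data known, that share is a description and not independent support. Members with a CHR in a listed promoter (26 genes) had a median log2 difference of -1.43 and 12 of them fell, and the 17 without one had a median of -1.31 and 2 fell. With a CCAAT box 13 of 30 genes fell, and without one 1 of 13. The CHR variant went the other way, with 2 of 9 genes that held it and 12 of 34 that did not. For E2F-like sites 3 of 9 genes with one and 11 of 34 without one fell. None of these medians and counts was compared by a test. In bulk tissue, fewer dividing cells and less RNA per dividing cell cannot be told apart.

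How many members passed depended on the arrays in the fit. When deletion replicate 1, 2 or 3 was left out, 7, 21 and 4 members fell, against 0.506%, 0.735% and 0.327% of all genes. When control replicate 1, 2 or 3 was left out, 11, 3 and 5 fell, against 0.661%, 0.098% and 0.343%. Of the 15 calls, 8, 1 and 11 ended without deletion replicate 1, 2 or 3, and 6, 12 and 10 ended without control replicate 1, 2 or 3. No member rose in any of these fits. A fit that blocks on the replicate number, called the replicate block from here on, gave 42 members that fell, against 4.19% of all genes. The labels number the arrays but do not pair them across groups. Correlations in these same data were the ground for the block, so its calls are less firm than their adjusted p reads. Bub1b, Cdca8 and Ect2 passed in all 17 alternative fits, and the other 12 called members in 5 (Cenpa) to 15 (Cdc20) of them.

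**Figure D1:**
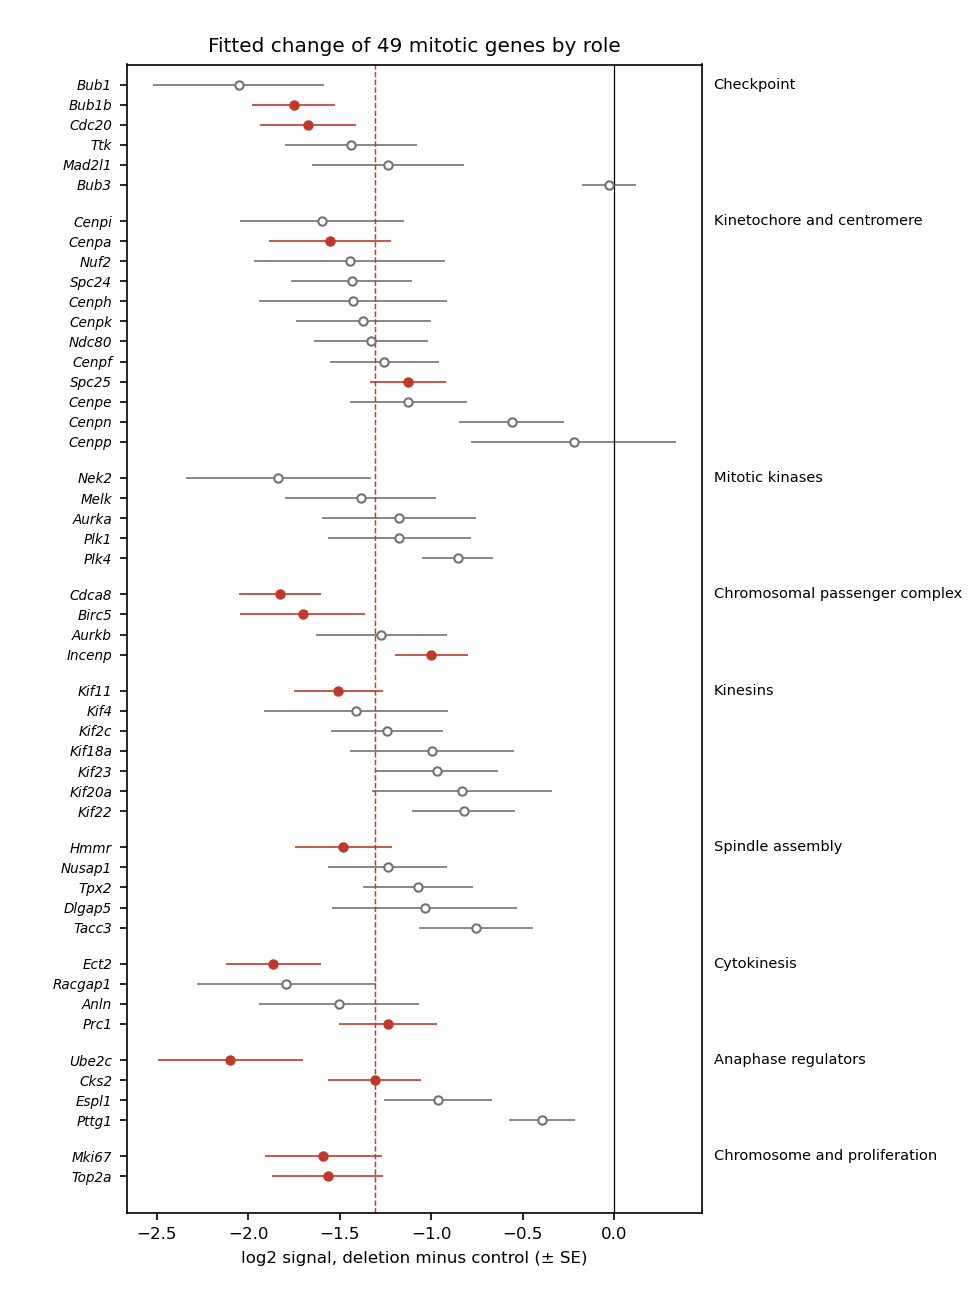
Fitted log2 difference, deletion minus control, with its standard error for the 49 members tested, grouped by role from top to bottom. Filled red points passed limma at an adjusted p under 0.05 (15 genes), open grey points did not, and the dashed line is the median of -1.31. All points lie left of 0, and Bub3 and Cenpp lie nearest to it.

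Of the 6 checkpoint genes 2 fell, 5 with the replicate block, and Bub3 was the one that passed in neither fit. Bub1b encodes BubR1, which inhibits the anaphase-promoting complex while chromosomes are unattached. Its signals were 271, 233 and 198 on the 3 deletion arrays (replicates 1, 2 and 3, the order used throughout), against 706, 687 and 986 on the 3 control arrays. The groups do not overlap, and Bub1b fell by 1.75 ± 0.23 (SE) in log2 units, with a ratio of 0.297 (adjusted p = 0.00641). Cdc20, the activator of the anaphase-promoting complex that the checkpoint holds back, had 660, 1338 and 700 in deletion, against 2672, 2718 and 2765 in control. The control arrays were nearly equal for Cdc20 and the second deletion array lay nearest to them. Cdc20 fell by 1.67 ± 0.26 (SE) in log2 units (adjusted p = 0.0126), a call that ended in 2 of the 17 alternatives, without deletion replicate 3 (adjusted p = 0.0526) and without control replicate 2 (0.0685, the highest), with 0.0009 under the replicate block the lowest. Bub3, the adaptor that brings Bub1 and BubR1 to kinetochores, had 4347, 4616 and 4428 in deletion, against 4893, 4502 and 4293 in control. Its groups overlap, and the log2 difference was -0.03 ± 0.15 (SE; adjusted p = 0.959). The sign of that difference turned under some alternatives, whose values are given in the closing section. Of the other 3, the kinases Bub1 and Ttk (which encodes Mps1) had log2 differences of -2.05 and -1.44 with separated groups, and Mad2l1, which encodes Mad2, had -1.24 with overlapping groups. None of these 3 passed, with adjusted p from 0.057 to 0.179, and with the replicate block all 3 did (adjusted p from 0.0023 to 0.00608).

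**Figure D2:**
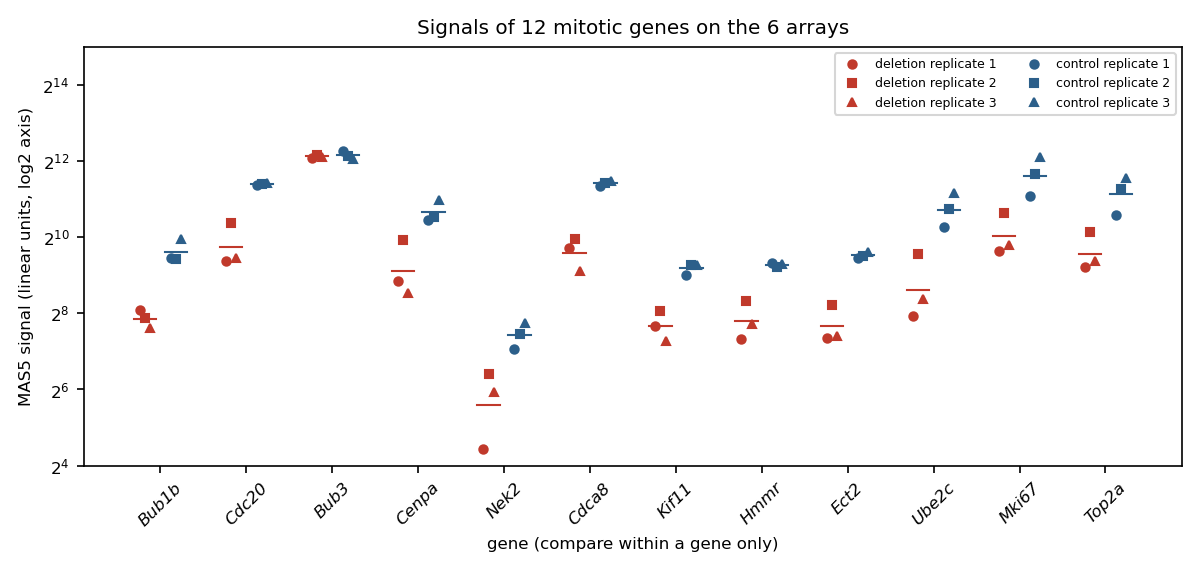
MAS5 signals on a log2 axis for 12 members on the 6 arrays, with the deletion arrays (red) left of the control arrays (blue) for each gene. Symbols stand for replicates 1 to 3 and lines for the mean of the log2 values, and levels are to be compared only within a gene. The groups are apart in every gene shown other than Bub3, where they overlap.

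Kinetochore and centromere genes had a median log2 difference of -1.35 over 12 members, of which 2 fell, 10 with the replicate block. Spc25, a subunit of the Ndc80 complex that grips microtubules, had 1138, 1672 and 1096 in deletion, against 3209, 2784 and 2435 in control. It fell by 1.13 ± 0.21 (SE) in log2 units, a ratio of 0.458, with groups that do not overlap (adjusted p = 0.0269). Cenpa encodes the histone H3 variant that marks centromeres. Its signals were 462, 975 and 372 in deletion, against 1410, 1494 and 2018 in control, so that here too the second deletion array was the highest of its group. Cenpa fell by 1.55 ± 0.34 (SE) in log2 units (adjusted p = 0.0452). That call held in 5 of the 17 alternatives, with an adjusted p from 0.00618 with the replicate block to 0.152 without control replicate 2, and among the arrays left out in turn it held without deletion replicate 2 and ended without any of the other 5.

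The 3 other subunits of the Ndc80 complex differed by similar amounts without passing the test. Their log2 differences were -1.33 for Ndc80, -1.45 for Nuf2 and -1.43 for Spc24 (adjusted p = 0.0625, 0.214 and 0.0586), and all 3 passed with the replicate block (adjusted p from 0.00569 to 0.018). Ndc80 and Cenpi, a subunit of the constitutive centromere network, had no Present call in deletion and 3 in control. Each had entered the test through the control group, where it was high. Their deletion signals of 70.3, 108 and 101 for Ndc80 and 30.2, 107 and 78.8 for Cenpi are therefore only upper limits, and control was at least 2.51-fold and at least 3.03-fold higher. The deletion signals lay above the lowest detected signal on each array, so these folds equal the fitted ones. Cenpp, another subunit of that network, had 262, 1377 and 365 in deletion, against 369, 691 and 818 in control. Its second deletion array was the highest of all 6, and the log2 difference was -0.22 ± 0.56 (SE; adjusted p = 0.915). The remaining kinetochore members (the kinesin-like motor Cenpe, the large scaffold Cenpf, Cenph, Cenpk and Cenpn) had log2 differences from -1.43 to -0.56 and did not pass, and Cenpn did not pass with the replicate block either.

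None of the 5 mitotic kinases passed in limma, although all 5 were lower at an unadjusted p under 0.05 (5.85% of all genes) and all 5 fell with the replicate block. Their median log2 difference was -1.18. Plk4, the kinase that starts centriole duplication, had 828, 753 and 725 in deletion, against 1289, 1186 and 1754 in control. The groups do not overlap and the log2 difference was -0.86 ± 0.20 (SE), just short of the threshold (adjusted p = 0.0575; 0.0105 with the replicate block, the lowest over the alternatives, and 0.179 without control replicate 3, the highest). Nek2, a kinase that splits centrosomes, had low signals of 21.5, 85.3 and 60.8 in deletion, against 133, 177 and 216 in control. Its log2 difference of -1.84 ± 0.51 (SE) was the largest among the kinases by the probe sets used. The adjusted p was 0.103, from 0.0125 with the replicate block to 0.311 without control replicate 2 over the alternatives. Nek2 was Present on 2 deletion arrays, and its other kept probe set had -0.60. With the mean of probe sets Nek2 had -1.22, a smaller difference than that of Melk (-1.38). Aurka, the centrosomal Aurora kinase, had 108, 193 and 162 in deletion, against 177, 387 and 573 in control. Control replicate 1 lay below the second deletion array, so the groups overlap, and the log2 difference was -1.18 ± 0.42 (SE; adjusted p = 0.211, 0.0179 with the replicate block and up to 0.511 without control replicate 2). Plk1, the Polo kinase of mitotic entry, and Melk had log2 differences of -1.17 and -1.38, with overlapping groups.

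The chromosomal passenger complex joins the kinase Aurora B (Aurkb) to Incenp, survivin (Birc5) and borealin (Cdca8) and corrects faulty attachments. Among its 4 subunits 3 fell, 4 with the replicate block, and all 4 had groups that do not overlap. Cdca8 had 836, 1000.03 and 550.02 in deletion, against 2606, 2774 and 2844 in control. It fell by 1.83 ± 0.23 (SE) in log2 units, a ratio of 0.282, and had the smallest adjusted p of the members (adjusted p = 0.00603). Birc5 showed 258, 571 and 318 in deletion, against 795, 1273 and 1597 in control, and fell by 1.70 ± 0.34 (SE) in log2 units (adjusted p = 0.035). Incenp fell to a ratio of 0.5001 (adjusted p = 0.0355), with separated groups. Aurkb itself had 96, 166 and 99.9 in deletion, against 182, 298 and 413 in control. Its log2 difference of -1.27 ± 0.36 (SE) did not pass (adjusted p = 0.109, 0.0207 with the replicate block, and from 0.0196 to 0.339 over all alternatives).

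Kinesins had the smallest median difference among the roles with 4 or more tested members, -0.997 over 7 genes, but differences between roles were not tested. Kif11 is the motor Eg5, which pushes spindle poles apart, and was the kinesin that fell, by 1.51 ± 0.25 (SE) in log2 units (adjusted p = 0.0156). Its signals were 204, 268 and 155 in deletion, against 512, 615 and 619 in control, without overlap. Kif2c, a microtubule depolymerase at centromeres, had 176, 313 and 145 in deletion, against 385, 514 and 536 in control. The log2 difference was -1.24 ± 0.31 (SE; adjusted p = 0.074, 0.0108 with the replicate block and up to 0.268 without control replicate 2). Kif20a, a motor of the central spindle in late mitosis, had 101, 285 and 189 in deletion, against 160, 346 and 556 in control. The 2 groups overlap, with a log2 difference of -0.83 ± 0.49 (SE; adjusted p = 0.497). The other kinesins (the chromokinesins Kif4 and Kif22, Kif18a and the centralspindlin motor Kif23) had log2 differences from -1.41 to -0.82, each with overlapping groups. With the replicate block 6 of the 7 kinesins fell, all but Kif20a.

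Of 5 spindle assembly genes, Hmmr fell. It encodes a hyaluronan receptor and spindle protein, and its signals were 162, 323 and 210 in deletion, against 636, 600 and 626 in control. The control arrays stood close together, and Hmmr fell by 1.48 ± 0.26 (SE) in log2 units (adjusted p = 0.022). Nusap1, which bundles spindle microtubules, had 332, 855 and 444 in deletion, against 970, 1236 and 1376 in control. The groups do not overlap, and the log2 difference was -1.24 ± 0.33 (SE; adjusted p = 0.0902, 0.0059 with the replicate block and up to 0.288 without control replicate 2). Dlgap5, a spindle protein that stabilises kinetochore fibres, had 53.5, 142 and 151 in deletion, against 155, 156 and 412 in control. Those groups touch without overlapping, and the log2 difference of -1.04 ± 0.50 (SE) did not pass (adjusted p = 0.383). Tpx2, an activator of Aurora A, and its partner at the spindle Tacc3 had -1.07 and -0.76, and with the replicate block Hmmr, Nusap1 and Tpx2 fell.

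Cytokinesis genes had a median log2 difference of -1.65, and 2 of the 4 fell. Ect2, the exchange factor that activates RhoA at the division site, had 163, 300 and 171 in deletion, against 706, 727 and 782 in control. It fell by 1.86 ± 0.26 (SE) in log2 units, a ratio of 0.275 (adjusted p = 0.00852). Prc1, the bundler of the central spindle, had 249, 504 and 284 in deletion, against 739, 777 and 814 in control, and fell by 1.24 ± 0.27 (SE) in log2 units (adjusted p = 0.0464). The call of Prc1 held in 6 of the 17 alternatives, with an adjusted p from 0.00568 with the replicate block to 0.183 without control replicate 2, and here too it ended without any single array other than deletion replicate 2. Both genes had tight control values and a second deletion array above the other 2. Anln, encoding the ring scaffold anillin, had 148, 508 and 185 in deletion, against 474, 763 and 878 in control. Its second deletion array exceeded control replicate 1, and the log2 difference of -1.504 ± 0.44 (SE) did not pass (adjusted p = 0.12, 0.0077 with the replicate block and up to 0.36 without control replicate 2). Racgap1, the partner of Kif23 in centralspindlin, differed by -1.79 ± 0.49 (SE) with separated groups (adjusted p = 0.0995). All 4 fell with the replicate block.

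Among the anaphase regulators Ube2c and Cks2 fell, while Pttg1 and Espl1 did not pass the test. Ube2c is the ubiquitin-conjugating enzyme of the anaphase-promoting complex, with signals of 244, 753 and 335 in deletion, against 1223, 1713 and 2313 in control. It had the largest difference of all members, falling to a ratio of 0.233 (log2 -2.10 ± 0.40, SE; adjusted p = 0.0284). Cks2, a small subunit of cyclin-dependent kinase complexes, had 1774, 3588 and 1979 in deletion, against 5275, 5940 and 6112 in control, and fell by 1.31 ± 0.26 (SE) in log2 units (adjusted p = 0.0319). Pttg1 encodes securin, which blocks separase until anaphase. Its signals were 4611, 5338 and 5496 in deletion, against 8289, 5838 and 6320 in control. The groups do not overlap, and the log2 difference was -0.39 ± 0.18 (SE; adjusted p = 0.355). Espl1, which encodes separase itself, had a log2 difference of -0.96 ± 0.29 (SE; adjusted p = 0.136) and passed with the replicate block (adjusted p = 0.047, the lowest over its alternatives, with 0.379 the highest).

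Mki67 and Top2a, widely used to mark dividing cells, both fell. Mki67, the gene of the chromosome surface protein Ki-67, had 804, 1598 and 886 in deletion, against 2165, 3230 and 4448 in control. Top2a, the topoisomerase that untangles sister chromatids, had 593, 1117 and 666 in deletion, against 1542, 2455 and 3031 in control. Neither gene had overlapping groups, with ratios of 0.332 and 0.338 (adjusted p = 0.0355 and 0.0315). Foxm1, a transcription factor that switches on many of the other members, could not be tested. Its 4 probe sets had no Present call in deletion and at most 2 in control. The probe set with the highest mean signal had 146, 168 and 209 in deletion, against 92.4, 185 and 245 in control, where it was Present on 2 arrays. Its log2 difference was 0.10, while the other Foxm1 probe sets had -1.04, -0.89 and -1.92, none of them tested.

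**Figure D3:**
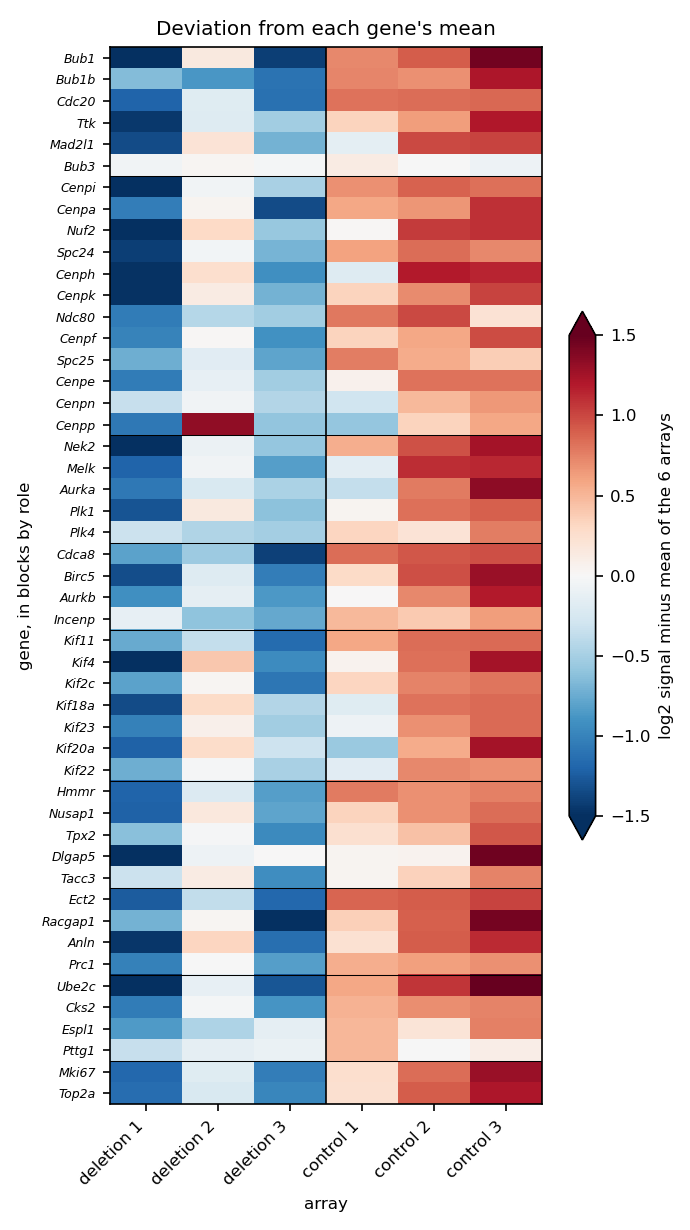
Log2 signal of each member on each array minus that gene's mean over the 6 arrays, in blocks by role (checkpoint at the top, chromosome and proliferation at the bottom), with the deletion arrays left of the control arrays. Blue is below the mean and red above. Deletion replicate 2 is paler than the other deletion arrays in most rows, and control replicate 1 paler than the other control arrays.

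The members moved together from array to array inside each group. Deletion replicate 2 had the highest signal of the deletion arrays in 43 of 49 members and the lowest in none. Deletion replicate 1 was the lowest in 37 and deletion replicate 3 in 12. Among the control arrays replicate 3 was the highest in 40 members and replicate 1 the lowest in 40. Relative to the control mean of each gene, the median member stood at log2 -1.71, -0.73 and -1.42 in deletion, against -0.35, 0.04 and 0.34 in control. Every deletion array thus had a lower median than every control array, and the 3 deletion arrays spanned a wider range than the gap between deletion replicate 2 and control replicate 1. The median within-group SD of the members was 0.52 on the log2 scale, beside 0.29 over all genes. Between arrays of the same replicate number the median difference of the members was -1.38, -0.75 and -1.72, beside 0.006, 0.036 and 0.023 over all genes. In those pairs 49, 47 and 48 of the 49 members were lower in deletion. The counts of members per array and per pair in this paragraph were not made over all genes.

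**Figure D4:**
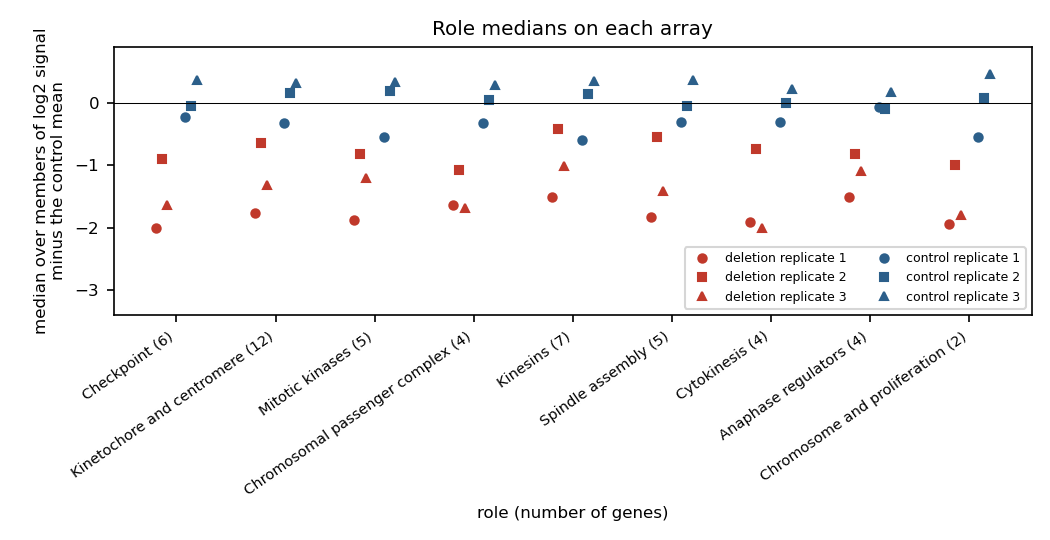
Median over the members of each role of the log2 signal minus the gene's control mean, on each array, with deletion (red) left of control (blue) and symbols for replicates 1 to 3. In 8 of the 9 roles the 3 deletion arrays lie below all control arrays, and in kinesins deletion replicate 2 at -0.41 lies above control replicate 1 at -0.58.

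The detection calls pointed the same way as the signals, but they come from the same arrays and are not independent of them. Of the 49 members, 40 had 3 Present calls in deletion and 48 had 3 in control. Fewer Present calls in deletion than in control were seen in 9 members, and more in none. The same counts were not made over all genes, so no background share stands beside them. A filter on detection can keep genes only because they were high in control, so the 40 members Present on all 6 arrays were also viewed alone. Their median log2 difference was -1.25. All 40 had lower means in deletion, against 48.7% of the 10570 genes Present on all 6 arrays, and 28 had separated groups, against 8.85%. The 15 members that fell were among the 40, and 13 of them fell when these 10570 genes were fitted alone, against 0.634% of those genes. Cenpa and Prc1 were the 2 calls that ended in that fit (adjusted p = 0.0528 for both).

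Further probe sets were available for 27 members. Of 39 kept but not used in the test, 36 had the same sign as the probe set that was used. The 3 with a higher mean in deletion belonged to Bub3, Cenpp and Cenpk, with log2 differences of 0.53, 0.99 and 0.26. For some genes that fell the further probe sets differed less. Hmmr had -0.83, -0.49 and -1.07, Incenp -0.54 and -0.57, and Spc25 -0.09 on the log2 scale, while Cdca8 had -1.31 and -1.77. Kif11 had -1.41 and -0.37, Top2a -0.87, Bub1b -1.09 and Cenpa -1.11. In Cks2 and Prc1 the further probe sets differed more, with -1.37 and -1.59. Averaging the probe sets of each gene left 7 members that fell, against 0.612% of all genes. The calls of Spc25, Cenpa, Incenp, Kif11, Hmmr, Prc1, Cks2 and Top2a ended in that fit. Their adjusted p ran from 0.0532 (Cks2) to 0.172 (Hmmr), with 0.0744 for Kif11 and 0.0805 for Top2a. The used probe sets of Cdc20, Aurkb, Incenp, Kif2c and Kif22 are of the _x_at kind, which may also bind related transcripts. Those of Bub1b, Bub3, Cdca8, Plk4, Prc1 and Pttg1 are of the _s_at kind, which may also bind more than 1 transcript. Further kept probe sets without either mark had log2 differences of -1.26 for Cdc20, -1.09 for Bub1b and -1.31 for Cdca8.

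Other genes of mitosis were read from a list of which 86 were named on the array and 75 were tested. Of these 10 fell in limma, against 0.759% of all genes, and 0 rose (1 was higher at an unadjusted p under 0.05, against 9.3%). With the replicate block 25 fell, against 4.19% of all genes, and 1 rose. The 75 genes had a median log2 difference of -0.43, and 25 had deletion arrays below all control arrays, against 8.64% of all genes. The 4 with the smallest p were Cdca2, Pbk, Cenpm and Knstrn. Cdca2, which recruits a phosphatase to anaphase chromosomes, had 117, 135 and 132 in deletion, against 326, 419 and 425 in control, and fell by 1.597 ± 0.23 (SE) in log2 units (adjusted p = 0.00869). Pbk, a mitotic kinase, had 479, 849 and 449.8 in deletion, against 1727, 1661 and 1802 in control. Cenpm had 98.4, 149 and 95.03 in deletion, against 322, 319 and 332 in control. Knstrn, a spindle and kinetochore protein, had 197, 326 and 283 in deletion, against 597, 677 and 838 in control. Cenpm was Present on 1 deletion array and Cdca2 on 2, against all 3 control arrays for both, so that the control group alone carried them past the detection filter. None of these 4 had overlapping groups, and the adjusted p of the last 3 was 0.0118, 0.018 and 0.0202. Together the members and these genes gave 25 of the 93 genes that fell (26.9%), while being 1.01% of the genes tested. Both lists were chosen with earlier results of these data known, so such shares are not independent support. Of the 10 other mitosis genes that fell, 6 were Present on all 6 arrays. In the fit of the 10570 genes Present on all 6 arrays, 3 of 61 fell, and both lists together gave 16 of the 67 genes that fell (23.9%) while being 0.956% of the genes tested. Without control replicate 2 none of the 75 passed, though 24 were lower at an unadjusted p under 0.05 in that fit, against 3.65% of all genes.

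Markers of tissues and cells were read beside these results. The odontoblast and pulp mesenchyme genes that were tested (4 of 5 and 9 of 9 listed), which define the labelled tissue, were Present on every array. The mesenchyme genes summed to between 196890 and 248123 in deletion, against 200116 to 246230 in control, with a list median of 0.04. Of the 9 mesenchyme genes, Prrx1, a homeobox factor of mesenchyme, rose by 1.15 ± 0.18 (SE) in log2 units (adjusted p = 0.0114), with 1847, 2065 and 1690.3 in deletion, against 862, 940.3 and 735 in control. With the replicate block Col3a1, a fibrillar collagen gene, rose as well (log2 difference 0.88; adjusted p = 0.020 with the block and 0.125 without it). No odontoblast gene passed, and Nes, the gene of the filament protein nestin, fell with the replicate block (log2 difference -0.55; adjusted p = 0.0433 with the block and 0.14 without it). The targeted gene Rnf2 (Ring1b) was not lower in the arrays labelled deletion, with 3165, 3550 and 2831 in deletion, against 2693, 2440 and 2233 in control. All 3 deletion arrays lay above all 3 control arrays for Rnf2, with a ratio of 1.29 that did not pass (adjusted p = 0.33). Where its probe set lies relative to the deleted exons is unknown here, so it does not check the labels, and Ring1 was detected on too few arrays to be tested. Dental epithelium genes were detected as well, 12 of 13 listed, and on the tested genes the summed signal ranged from 53410 to 195529 in deletion, against 112893 to 154014 in control. It was highest on deletion replicate 3, where the median member stood at -1.42, and lowest on deletion replicate 1, where that median was -1.71. The enamel matrix genes Amelx (57357) and Ambn (54529) were the largest parts of the sum on deletion replicate 3. Of these 12, Sp6, a transcription factor of that epithelium, fell by 1.10 ± 0.17 (SE) in log2 units (adjusted p = 0.011). The list's median was -0.35. With the replicate block 4 fell (Sp6, Mmp20, Epcam and Cdh1) and 1 rose (Klk4). Mmp20, Epcam and Cdh1 had ratios of 0.474, 0.472 and 0.478 (adjusted p = 0.00293, 0.00151 and 0.0114 with the block). Klk4 had a ratio of 1.97 (adjusted p = 0.0114 with the block). Of the dental epithelium genes only Sp6 passed without the block. Neutrophil markers (3 of 5 listed were tested, 2 of which fell with the replicate block) summed to between 163 and 531 in deletion, against 673 to 2808 in control, and S100a9 fell by 2.87 ± 0.49 (SE) in log2 units (adjusted p = 0.019). Among the control arrays that sum was highest on replicate 1, where most members were lowest. Summed signals of endothelium, pericyte and macrophage markers overlapped between the groups, and no gene of these 3 lists passed without the block. With the replicate block 1 pericyte gene fell (4.19% of all genes) and 2 rose (789 of 12250 genes). The pericyte sum joins genes that moved in opposite directions. Acta2 fell, with separated groups (log2 difference -0.863; adjusted p = 0.00266 with the block and 0.0512 without it). Pdgfrb and Cspg4 rose (0.999 and 0.716; adjusted p = 0.00145 and 0.032 with the block). Rgs5 and Notch3 were higher too (0.448 and 0.473) but passed in neither fit. The part of these other cells in the lower mitotic signals was not tested.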

How the data were processed

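Arrays were grouped and numbered by their titles. Probe set signals are intensities in linear units from MAS5 software, per the submitters' processing notes, and their trimmed mean (2% off each end) was 500 on every array as deposited. Per the labels' protocols the RNA was amplified in more than 1 round before labelling, which can compress differences. Present, Marginal or Absent calls came from the deposited workbook, and 12 further columns of per-sample values in it were left out. The workbook headers show the group of an array but not its number, and name 1 array per group in another style than the other 4. Present calls covered 53.8% to 57.9% of probe sets on an array.

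A probe set was kept if it had a single gene symbol and at least 3 Present calls, and a gene took its brightest kept probe set by mean log2 signal. Log2 values (signals under 1 raised to 1) were fitted in R 4.3.3 with limma 3.58.1, using moderated variances with an intensity trend and a two-sided test. All adjusted p are Benjamini-Hochberg values over the genes of the fit, with 0.05 as threshold, and the procedure was tested on simulated data. The main fit held 12250 genes, that of genes Present on all 6 arrays 10570, and that with no detection filter 18193. The members and lists were chosen with earlier results of these data known. Signals of every array are given for the 2 members with the smallest p and the 1 with the largest in each role, for Mki67, Top2a and Foxm1, and for the 4 other mitosis genes with the smallest p. A group without Present calls gives a limit only, set by the gene's own signal or by the lowest signal (10.5 to 15.5) of fully detected probe sets, whichever was higher.

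Arrays with the same number deviated together: their differences from the group means correlated over all genes at 0.485 (replicate 1), 0.189 (replicate 2) and 0.286 (replicate 3). Each exceeds 0.1, so the fit with a replicate block treats the numbers as pairs, a pairing that the labels do not give. Crossed arrays 2 and 3 also correlated (0.213 and 0.117), and deletion replicate 2 did so more with control replicate 3 (0.213) than with control replicate 2 (0.189). The labels call the arrays biological replicates, and p-values measure the spread between them. Their number limits the precision. A planned protein motif search was not run. None of 5 erythroid markers was kept, and of 4 Schwann cell markers S100b was tested and did not pass.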

Additional observations from a re-analysis of the deposited data

How the results depend on the processing

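The number of members that fell (15) stayed within 1.5-fold under the alternatives of normalization, low signals and detection filter, and their median log2 change lay between -1.62 and -1.06 in all 17 alternatives. The count was 7 with the mean of probe sets, 6 without an intensity trend, 42 with the replicate block and 39 with array quality weights. Leaving out each array in turn gave 3 to 21. Over all genes, 93 fell and 232 rose. These counts were 51 fallen without an intensity trend, 513 and 789 with the replicate block, 415 and 691 with array quality weights, 137 risen among genes Present on all 6 arrays and 167 fallen without both replicate 1 arrays. Leaving out 1 array gave 12 to 90 fallen and 82 to 219 risen. Other mitosis genes that fell (10) numbered 3 among genes Present on all 6 arrays, 5 with no detection filter, 6 with the mean of probe sets, 5 without an intensity trend, 25 with the replicate block and 23 with array quality weights (1 rose with the weights and 1 with the block), and 0 to 14 when an array was left out. Signs turned in 2 members, neither of which passed. Bub3 had 0.054 with quantile normalization, 0.049 with the mean of probe sets, 0.0028 with array quality weights and 0.0404 without both replicate 1 arrays, and -0.073 to 0.022 when an array was left out. Cenpp had 0.18 with the mean of probe sets and -0.94 (without deletion replicate 2) to 0.26 (without deletion replicate 1) when an array was left out. The replicate block turned no sign and ended no member's call, and 27 further members passed with it. The cause of these shifts was not tested. Cenpi, Ndc80 and Foxm1 had no Present call in deletion, which limits what their signals show.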
